A study of Homo sapiens with 6 samples.

Results

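The transcripts described here are those of 9 genes of the p53 pathway, chosen by gene symbol from the 16670 genes with values. They are the p53 regulators MDM2 and MDM4 and 7 genes that p53 activates directly, TP53I3, TP53INP1, TIGAR, ZMAT3, FAS, FDXR and BTG2. All 9 had a row and all passed the filter on low values. The RNA came from A549, an established cell line of human non-small cell lung cancer (NSCLC). Both groups had been treated with alisertib, which blocks Aurora A, a kinase of mitosis, for 1 week to make the cells senescent, and no group without alisertib was analysed here. The untreated group (n = 3) received no further drug. The salinomycin group (n = 3) then received salinomycin, an ionophore that carries alkali metal ions across membranes, at 2.5 µM for 48 h. The labels call the 3 libraries of each group biological replicates of the one cell line. Deposited totals were nearly equal by construction, and recovered reads lay between 13539959 and 19641149 per library. Of 5 epithelial markers, 4 had a mean of 100 normalised units or more (KRT7, KRT8, KRT18 and KRT19), with EPCAM between 16.9 and 55.3 units. The 5 together summed to 207900 to 235700 units in untreated and 60540 to 70060 units in salinomycin libraries, a sum carried by KRT7, KRT8 and KRT18, which fell, while KRT19 rose 1.66-fold. Of the other cell types, 3 endothelial markers summed to 15.1 units or less in every library. COL1A1, alone of 3 fibroblast markers, was above a few units and fell from 667.5 ± 128 to 416.2 ± 18.3 units. CD14, the only leukocyte marker analysed here, fell from 201.4 ± 16.0 to 30.2 ± 9.88 units (SD, n = 3 per group). The part of these marker differences in the results below was not tested.

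The p53 protein is a transcription factor that is kept scarce in unstressed cells and accumulates after DNA damage, failed mitosis and other stresses. MDM2 is the ubiquitin ligase that marks p53 for destruction and is itself a p53 target, so that the pair forms a negative feedback loop. MDM4 is a relative of MDM2 that binds p53, restrains its activity and pairs with MDM2. Activated p53 binds response elements made of a pair of half-sites and induces genes of cell cycle arrest, cell death, DNA repair and metabolism, and the resulting arrest is one of the routes into senescence.

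The promoters of MDM2, FAS, FDXR and TP53I3 are shown because the first of these genes rose and the others fell, and because the first 3 hold sequences that resemble a p53 response element near a start site. A full site was scored as a pair of p53 half-sites separated by 0 to 13 bases, with at most 3 mismatches in all and with the fixed C and G of each half-site kept. The half-site consensus reads the same on both strands. The windows run from 250 bases before to 50 bases after a RefSeq start site on GRCh38.p14, 5′ to 3′ on the gene's strand. They are chr12:68808767-68809066 (plus strand) for a downstream start of MDM2, chr10:88991181-88991480 (plus strand) for a downstream start of FAS, chr17:74872945-74873244 (minus strand) for FDXR and chr2:24084785-24085084 (minus strand) for the TP53I3 start listed. Capitals mark the half-sites of the best full site, and TP53I3 had none in its window.
MDM2: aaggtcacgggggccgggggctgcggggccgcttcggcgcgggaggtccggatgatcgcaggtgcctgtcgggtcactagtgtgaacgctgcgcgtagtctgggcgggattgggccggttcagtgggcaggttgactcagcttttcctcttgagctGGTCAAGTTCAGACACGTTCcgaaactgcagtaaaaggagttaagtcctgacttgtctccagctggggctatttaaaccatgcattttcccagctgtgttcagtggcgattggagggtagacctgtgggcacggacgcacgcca
FAS: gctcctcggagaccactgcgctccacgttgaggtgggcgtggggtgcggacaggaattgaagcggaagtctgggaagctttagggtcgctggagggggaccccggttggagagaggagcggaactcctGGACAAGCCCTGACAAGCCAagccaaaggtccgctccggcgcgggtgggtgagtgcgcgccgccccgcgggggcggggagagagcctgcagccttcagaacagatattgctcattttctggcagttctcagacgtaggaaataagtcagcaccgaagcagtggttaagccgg
FDXR: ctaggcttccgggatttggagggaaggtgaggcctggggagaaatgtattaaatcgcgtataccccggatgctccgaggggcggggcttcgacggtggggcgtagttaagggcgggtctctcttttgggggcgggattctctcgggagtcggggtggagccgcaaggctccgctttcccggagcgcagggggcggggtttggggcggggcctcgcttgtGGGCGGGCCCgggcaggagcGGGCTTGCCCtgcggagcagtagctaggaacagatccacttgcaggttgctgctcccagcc
TP53I3: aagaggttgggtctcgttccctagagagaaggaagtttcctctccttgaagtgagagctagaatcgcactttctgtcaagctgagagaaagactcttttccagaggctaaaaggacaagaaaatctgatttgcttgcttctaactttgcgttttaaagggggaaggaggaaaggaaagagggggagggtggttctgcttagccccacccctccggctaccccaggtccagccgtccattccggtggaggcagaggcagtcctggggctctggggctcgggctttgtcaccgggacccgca
The full site began 94 bases before the start in MDM2, 122 in FAS and 31 in FDXR, each with 2 mismatches. Symbols of 8 of the 9 genes were matched, all but TP53INP1, with 15 windows because several genes have alternative starts. A full site was found in 5 of the 15 windows, those of MDM2 (the same site in overlapping windows), FAS, FDXR and ZMAT3, against 12.8% of all 35116 windows. An exact half-site was found in 2 of the 15, those of FAS and FDXR, against 6.63% of all windows. In 67 windows of p53 targets outside the 9 genes, 25.4% held a full site and 8.96% an exact half-site. BTG2, TIGAR and MDM4 had no match in the windows searched. Sites outside the windows or of another form were not searched, so that no match does not mean no response element. Genes with a match were found on both sides of the change, MDM2 higher and FAS, FDXR and ZMAT3 lower.

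With salinomycin both regulators rose and all 7 direct targets fell. MDM2 rose 1.22-fold and MDM4 1.56-fold, while the targets fell between 1.34-fold (FDXR) and 2.92-fold (TP53I3). These calls, 2 higher and 7 lower among 9, stand against 41.6% higher and 40.2% lower, or 81.9% in either direction, among all 13088 tested genes, at a limma adjusted p under 0.05. The 3 salinomycin libraries lay wholly outside the range of the untreated ones for all 9 genes, a separation found in 83.0% of tested genes (42.4% with salinomycin above and 40.6% with salinomycin below). The genes were chosen with earlier results known, so that their count is a description. Each level is relative to the rest of its library. With library size as the only scaling, the median over tested genes shifted by 0.19 on the log2 scale, from 0.022 to 0.212. All 9 kept their direction and their call under that scaling, with changes between -1.36 (TP53I3) and 0.84 (MDM4). In bulk RNA fewer cells that express a gene cannot be told apart from less RNA per cell.

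**Figure D1:**
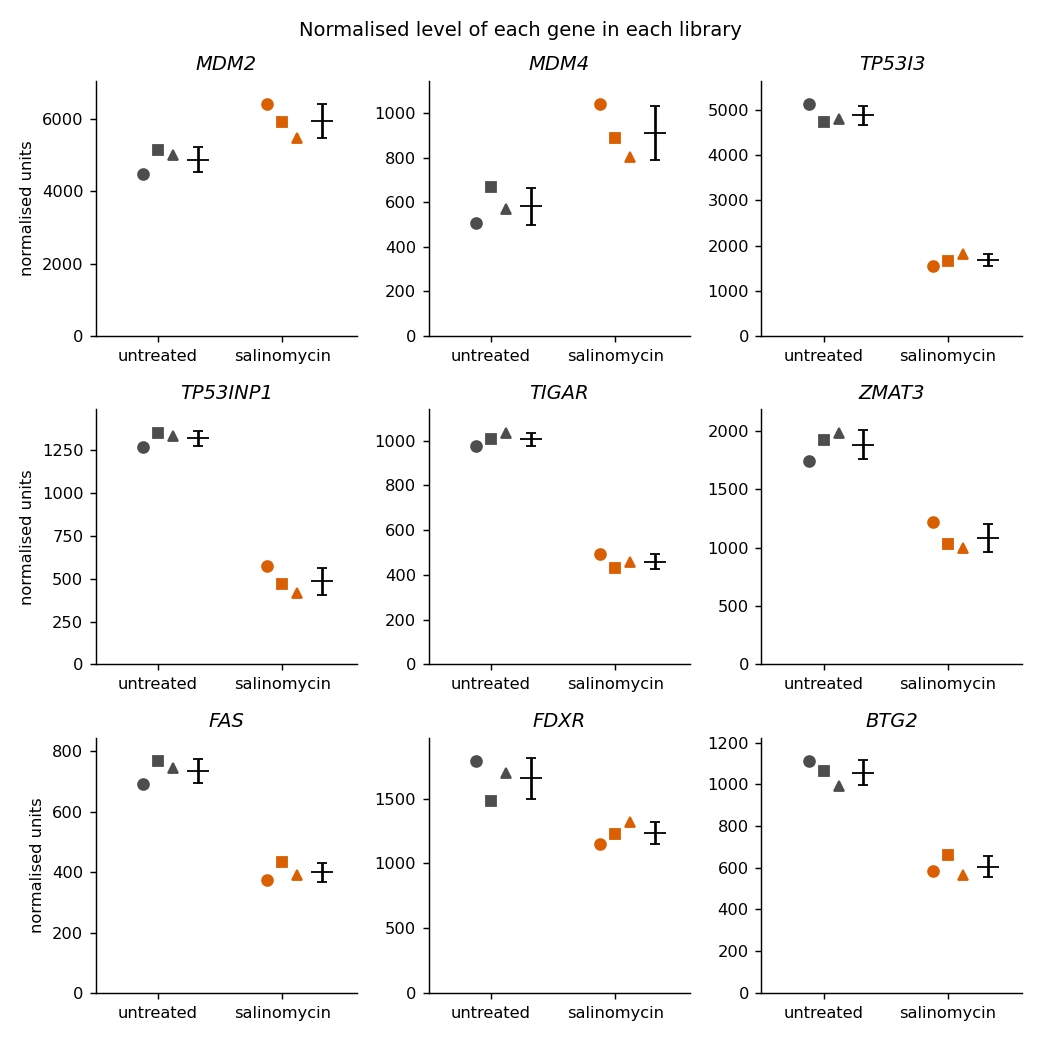
Normalised level (normalised units, linear axis from 0) of each of the 9 genes in the 3 untreated (grey) and 3 salinomycin (orange) libraries, with circles, squares and triangles for replicates 1, 2 and 3 and bars for the mean ± SD. MDM2 and MDM4 lie higher with salinomycin and the other 7 genes lie lower, with no overlap between groups.

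MDM2 (chromosome 12, 68808176 to 68850686, plus strand), the ubiquitin ligase of p53, had 4496, 5155 and 5000 normalised units in the untreated libraries and 6416, 5934 and 5487 with salinomycin. The lowest salinomycin library stood just above the highest untreated one, so that the groups were separate by a margin smaller than the SD within either. Means were 4884 ± 344 and 5946 ± 465 units (SD, n = 3 per group), a log2 change of 0.28 (SE 0.068; limma adjusted p = 0.00208). Among the 9 genes this was the smallest change, at the 60.5th percentile of all tested genes. Among overlapping genes with values, CPM on the opposite strand shares 1% of its exon bases, and whether counting used the strand was not given in the sources used here.

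MDM4 (chromosome 1, 204516379 to 204558120, plus strand), the partner that restrains p53 without destroying it alone, had 505, 668 and 572 units in the untreated and 1040, 887 and 802 units in the salinomycin libraries. Every salinomycin library was higher than every untreated one, although the spread within groups was the widest of the 9 genes in the untreated group (14.1% of the mean). The mean went from 581.6 ± 82.1 to 909.4 ± 121.0 units, a log2 change of 0.65 (SE 0.11; limma adjusted p = 0.00016).

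The MDM2 to MDM4 ratio within a library does not depend on scaling between libraries. It was 8.91, 7.71 and 8.74 in untreated and 6.17, 6.69 and 6.84 in salinomycin libraries. MDM4 thus rose more than MDM2 in these libraries, and the groups did not overlap. The mean ratio was 8.45 ± 0.646 untreated and 6.57 ± 0.353 with salinomycin (SD, n = 3 in each), a log2 difference of -0.36. An exact permutation test (two-sided) of the log2 ratio gave p = 0.1, the smallest that 3 against 3 allows.

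Among targets linked to cell death, TP53I3 and TP53INP1 fell most. TP53I3 (PIG3; chromosome 2, 24077433 to 24085861, minus strand) encodes a quinone oxidoreductase-like enzyme associated with reactive oxygen species. It had 5128, 4744 and 4791 units in untreated and 1543, 1665 and 1815 units in salinomycin libraries. Every salinomycin library lay far below every untreated one. Means of 4888 ± 210 and 1674 ± 136 units gave a log2 change of -1.55 (SE 0.063; limma adjusted p = 4.51e-10), at the 10.9th percentile of tested genes.

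TP53INP1 (chromosome 8, 94925972 to 94949411, minus strand) encodes a stress-induced nuclear and autophagy protein that promotes p53-dependent death. Its values were 1271, 1353 and 1336 units without and 573, 469 and 418 units with salinomycin. Untreated libraries agreed to within 3.27% of their mean (SD) and salinomycin libraries to within 16.3%, the widest relative spread of any of the 9 genes in either group. The log2 change was -1.45 (SE 0.097; limma adjusted p = 3.68e-08), a 2.73-fold fall.

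FAS (chromosome 10, 88990582 to 89015785, plus strand) encodes the death receptor CD95. It had 691, 768 and 745 units in untreated and 374, 433 and 391 units in salinomycin libraries, and fell 1.84-fold (log2 change -0.88, SE 0.075; limma adjusted p = 3.73e-07). The 3 salinomycin values lay close together and well below the untreated ones. FAS shares 380 exon bases, 8.93% of its exon length, with the oppositely oriented actin gene ACTA2, which went from 2069 ± 64 to 439 ± 22.3 units. Without strand information reads from the shared bases cannot be assigned, and the part of ACTA2 in the FAS values was not tested.

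Of the metabolic targets, TIGAR changed more than FDXR. TIGAR (chromosome 12, 4307763 to 4354593, plus strand) encodes a phosphatase that lowers fructose-2,6-bisphosphate and so slows glycolysis. It had 976, 1008 and 1036 units in untreated and 493, 430 and 457 units in salinomycin libraries. Both groups were tight, with SDs of 30.0 and 31.2 units around means of 1007 and 460. The fall was 2.19-fold (log2 change -1.13, SE 0.067; limma adjusted p = 1.21e-08). The annotated gene AC008012.1, on the same strand, shares 42.6% of the TIGAR exon length, and reads of the 2 genes cannot be told apart there.

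FDXR (chromosome 17, 74862497 to 74873031, minus strand) encodes ferredoxin reductase, the mitochondrial enzyme that passes electrons from NADPH to ferredoxin. It had 1790, 1484 and 1702 units in untreated and 1150, 1231 and 1321 units in salinomycin libraries. The groups were separate, with the lowest untreated library a short way above the highest salinomycin library. FDXR fell 1.34-fold (log2 change -0.42, SE 0.076; limma adjusted p = 0.000234), the smallest fall of the 7 targets, and by 0.23 on the log2 scale under scaling by library size alone (limma adjusted p = 0.0094).

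The remaining targets act on RNA or on proliferation and fell by nearly the same amount. ZMAT3 (chromosome 3, 179017223 to 179072279, minus strand) encodes an RNA-binding zinc finger protein, also known as WIG1. It had 1743, 1926 and 1987 units in untreated and 1217, 1031 and 1002 units in salinomycin libraries, a 1.74-fold fall (log2 change -0.80, SE 0.078; limma adjusted p = 1.21e-06). BTG2 (chromosome 1, 203305491 to 203309602, plus strand) encodes an antiproliferative protein that binds the deadenylase complex. It had 1111, 1066 and 991 units in untreated and 586, 663 and 566 units in salinomycin libraries, a 1.75-fold fall (log2 change -0.81, SE 0.073; limma adjusted p = 6.45e-07). In both genes the lowest untreated library lay well above the highest salinomycin one.

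**Figure D2:**
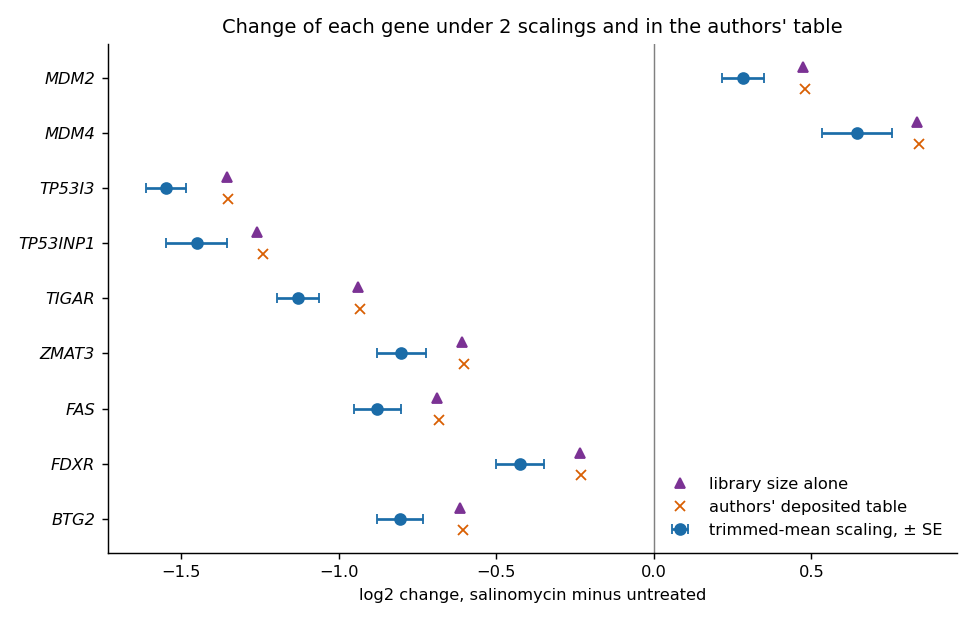
Log2 change (salinomycin minus untreated, x axis) of each of the 9 genes (y axis) with trimmed-mean scaling and its SE (circles), with scaling by library size alone (triangles) and in the authors' deposited table (crosses). All 3 estimates lie on the same side of 0 for every gene, and those without trimmed-mean scaling lie further to the right.

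The authors' deposited table gave the same directions, with log2 fold changes of 0.481 for MDM2, 0.841 for MDM4, -1.35 for TP53I3 and -1.24 for TP53INP1. For the other genes the authors' deposited table gave -0.931 (TIGAR), -0.681 (FAS), -0.606 (BTG2), -0.601 (ZMAT3) and -0.23 (FDXR, adjusted p = 0.00886).

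Summed over the 7 targets, the level was 12711, 12349 and 12588 units in untreated and 5936, 5923 and 5969 units in salinomycin libraries. The groups were far apart, and the salinomycin sums had an SD of 24.1 units around 5943, less than the SD of any single one of the 7 genes. Deviations of single genes offset in the sum. In salinomycin replicate 1 TP53INP1, TIGAR and ZMAT3 lay above their group means, and TP53I3, FAS, FDXR and BTG2 lay below. The ratio of the means was 0.474. TP53I3 held 38.9% of the untreated and 28.2% of the salinomycin sum.

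**Figure D3:**
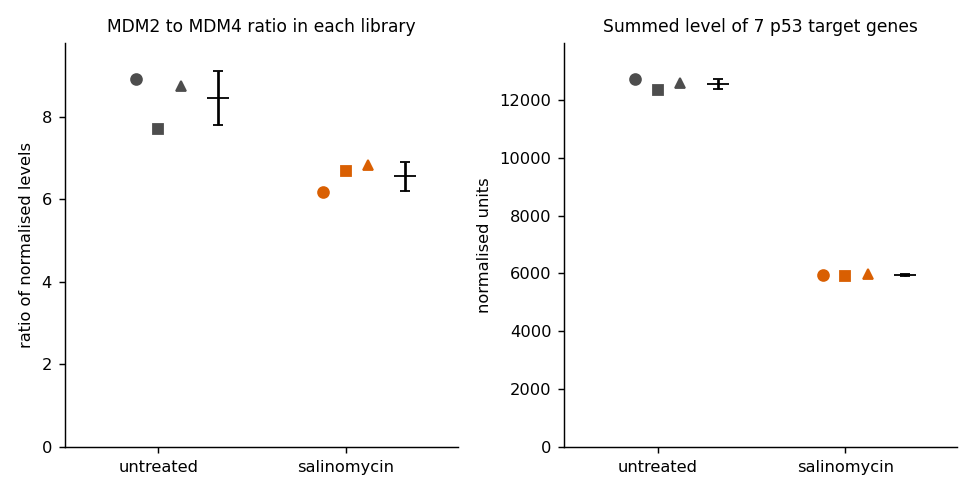
Left, ratio of the normalised levels of MDM2 and MDM4 in each library; right, summed normalised level of the 7 p53 target genes in each library (untreated grey, salinomycin orange, symbols for replicates 1 to 3, bars for mean ± SD, axes from 0). The ratio lies between 7.71 and 8.91 in untreated and between 6.17 and 6.84 in salinomycin libraries, and the sum falls from about 12549 to 5943 units.

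Levels of different genes were compared as normalised units per kilobase of exon in GENCODE, with the exons of all annotated transcripts of a gene merged. The order of the genes depends on this length, and other lengths were not tried. In untreated libraries TP53I3 was highest (2114 ± 90.7 units per kilobase), followed by FDXR (460.9 ± 43.8), BTG2 (383.1 ± 22.0) and MDM2 (367.6 ± 25.9), of which the last pair overlapped between libraries. TIGAR, TP53INP1, ZMAT3 and FAS lay between 250.6 and 172.7 units per kilobase, and MDM4 was lowest at 52.8 ± 7.46. With salinomycin TP53I3 was still the highest (724.2 ± 58.8 units per kilobase), and MDM2 took the next place at 447.6 ± 35.0, above FDXR (342.8 ± 23.8) and BTG2 (219.4 ± 18.5). TIGAR (114.5 ± 7.76) and ZMAT3 (112.3 ± 12.1) overlapped. The lowest 3, FAS (93.9 ± 7.14), TP53INP1 (85.7 ± 13.9) and MDM4 (82.6 ± 11.0), overlapped. MDM4 moved from below every target to a level that overlapped those of FAS and TP53INP1.

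Likeness of profile was measured as the Euclidean distance over the 6 libraries between log2 values centred on each gene's mean. Among 10256 genes outside the lists with a mean of 100 units or more, the closest to MDM2 was RBBP6 (distance 0.071), which encodes a ubiquitin ligase and went from 927.9 ± 60.6 to 1096 ± 76.3 units. DYNC2H1, a gene of the dynein motor of cilia, was closest to MDM4 (0.115). The lipid raft gene FLOT2 was closest to TP53I3 (0.037), and CHMP1A, of the ESCRT machinery, to FDXR (0.043). The kinase gene MKNK1 was closest to TIGAR (0.06), the G protein gene GNAQ to ZMAT3 (0.078), and the nucleotide synthesis gene CTPS2 to FAS (0.061). NIPSNAP3A was closest to BTG2 (0.079) and the receptor gene BMPR1B to TP53INP1 (0.162). A small distance reflects a like group change and like deviations of single libraries, and these deviations were related to exon length (below). Whether such genes share regulation was not tested.

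The rest of the pathway moved in both directions. Of 60 further p53 targets in 5 lists, 58 were tested, and 24 rose, 21 fell and 13 did not pass. That is 41.4% higher and 36.2% lower, near the 41.6% and 40.2% of all tested genes, with a median log2 change of 0.018 against 0.022. The median of the 7 targets was -0.88. The difference between the 7 and the 58 was not tested.

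**Figure D4:**
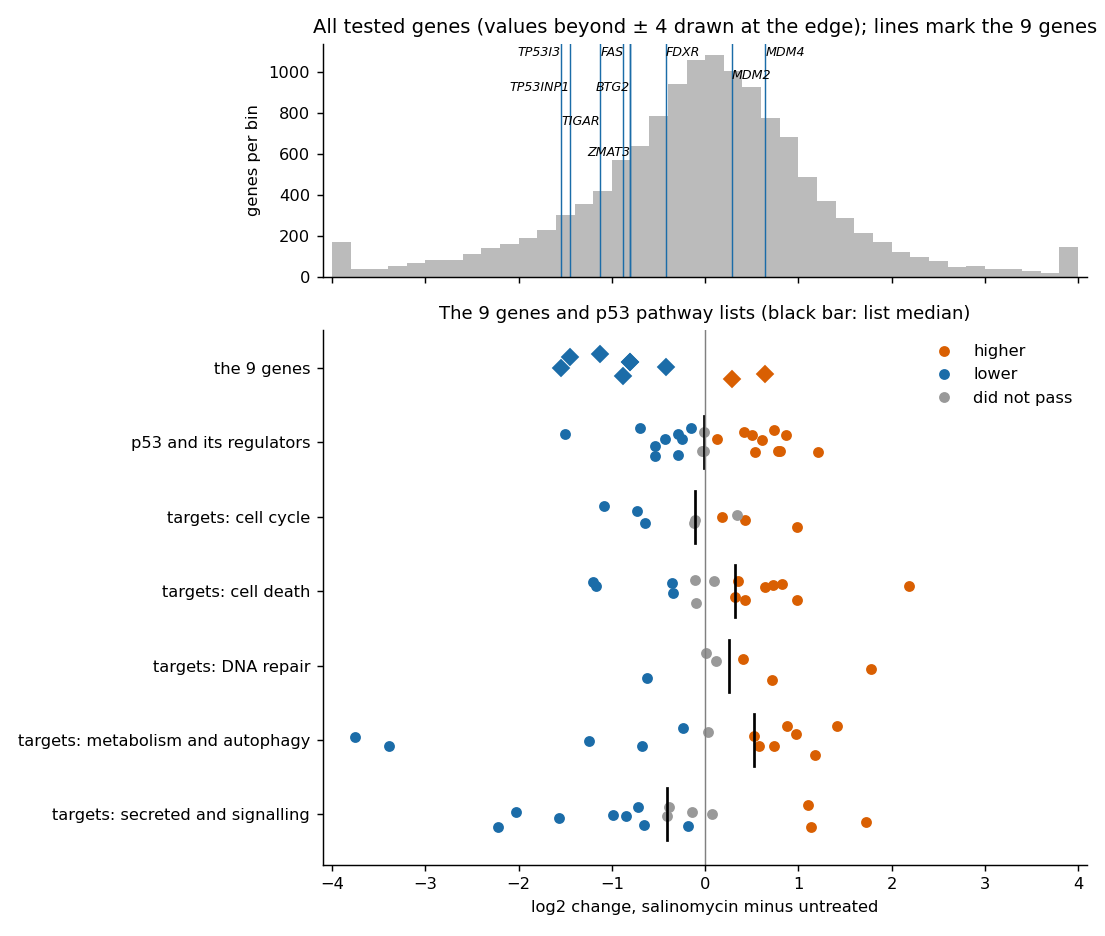
Top, number of tested genes per bin of log2 change (salinomycin minus untreated), with lines at the 9 genes; bottom, log2 change of every tested gene of the p53 pathway lists (points, coloured by call; black bars, list medians) and of the 9 genes (diamonds, of which those of BTG2 and ZMAT3 coincide). The 7 targets lie left of 0 and within the body of the distribution, while the pathway lists spread to both sides.

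In the list headed p53 and its regulators, 10 of 22 tested genes rose, 9 fell and 3 did not pass, with 4 lower under scaling by library size alone. HIPK2, a kinase that phosphorylates p53, fell by 1.51 on the log2 scale, from 3403 ± 592 to 1186 units. TRIM24, a ubiquitin ligase of p53, rose 2.32-fold, and ATM, the kinase that signals DNA breaks to p53, rose 1.82-fold. The further p53 ligase genes COP1 and RCHY1 rose 1.42 and 1.45-fold. USP10, a deubiquitinase of p53, rose 1.75-fold. The ribosomal protein genes RPL5 and RPL11, whose products inhibit MDM2, fell by 0.54 on the log2 scale each. CDKN2A, whose ARF product inhibits MDM2, was not analysed here.

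Cell cycle targets were split, with 3 of 9 tested genes higher, 3 lower and 3 not past the threshold. The p21 gene CDKN1A, whose product inhibits cyclin-dependent kinases, was 1.35-fold higher (limma adjusted p = 1.94e-05), going from 20085, 18227 and 18919 units to 24472, 26208 and 26544 units. PLK3, a stress-responsive Polo-like kinase gene, rose 1.98-fold. RPS27L, a ribosomal protein-like p53 target, fell 2.12-fold from 6267 ± 253 units, and PLK2, another Polo-like kinase gene, fell 1.66-fold. CCNG1, the cyclin G1 gene, fell by 0.65 on the log2 scale.

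Among 15 tested cell death targets 8 rose, 4 fell and 3 did not pass. SIVA1, an apoptosis regulator gene, rose 4.54-fold, from 238.2 ± 38.6 to 1076 units. The BH3-only genes BBC3 (PUMA) and PMAIP1 (NOXA) rose 1.99 and 1.56-fold. The receptor genes moved apart. TNFRSF10A and TNFRSF10B, which encode death receptors 4 and 5, rose 1.76 and 1.66-fold, while the decoy receptor gene TNFRSF10D fell 2.25-fold and FAS, as above, fell as well. PERP, a membrane protein gene of p53-dependent death, fell 2.31-fold. BAX, which encodes a pore-forming effector, had means of 3633 and 3367 units and did not pass.

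Of 6 DNA repair targets 3 rose and 1 fell, or 5 and 1 under scaling by library size alone. The nucleotide excision repair genes XPC and DDB2 went opposite ways, XPC 1.64-fold higher and DDB2 1.55-fold lower. POLH, the gene of the lesion-bypass polymerase eta, rose 1.32-fold. Metabolic and autophagy targets rose in 7 and fell in 5 of 13 cases, with a median log2 change of 0.53. ALDH4A1, the gene of a mitochondrial proline catabolic enzyme, fell 13.5-fold, from 1712 ± 174 to 125.5 units. ACER2, an alkaline ceramidase gene, fell 2.38-fold. The sestrin genes differed, with SESN2 2.66-fold higher and SESN1 1.6-fold lower.

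Secreted and signalling targets fell in 8 and rose in 3 of 15 cases, with a median of -0.41. THBS1, which encodes the matrix glycoprotein thrombospondin 1, fell 4.68-fold, from 3040 ± 258 to 647.2 ± 10.1 units. TGFA, an EGF receptor ligand gene, rose 3.3-fold, and the cytokine genes GDF15 and LIF rose 2.2 and 2.14-fold. Under 16 alternatives the 60 targets and the regulator list together gave between 32 and 41 higher and between 22 and 34 lower calls in total, against 34 and 30, without a count of which genes were shared.

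The authors' deposited table of gene sets held 69 sets with p53 in their names, and these share genes. In it, 10 of the 69 had a negative score and 1 a positive score at an adjusted p under 0.05, that is 14.5% negative, against 12.8% negative and 5.01% positive among all 21624 sets of the authors' deposited table. Of the 69, the set labelled p53_dn.v1_dn had the lowest adjusted p in the authors' deposited table (normalised enrichment score -2.54, adjusted p = 4.5e-13). The authors' deposited table gave the Hallmark p53 pathway a normalised enrichment score of -1.233 (adjusted p = 0.169) and a meta-analysis of direct p53 targets -1.27 (adjusted p = 0.0602). Metabolic genes regulated by p53 had -1.547 (adjusted p = 0.0367) and DNA repair genes regulated by p53 1.661 (adjusted p = 0.0206), in the authors' deposited table.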

How the data were processed

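RNA-seq values of 6 libraries from the A549 cell line were used. The build named per the submitters' processing notes is GRCh38. Which aligner, counter and gene models were used is not given in the sources used here. Sample columns of deposited signal hold whole numbers after a rescaling by the authors, with totals within 0.692% of each other and a lowest value of 1. That 1 was subtracted. Alongside stood, per the file headers, the authors' log10 means, log2 fold changes, fold change as a ratio, test score and p-values. Another deposited table lists gene sets, each with its p-values and enrichment score.

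Values were divided by trimmed-mean factors (30% of log ratios and 5% of levels trimmed), which lay between 0.9262 and 1.0795, to give normalised units. Log2 of units plus 1 was tested with limma 3.58.1 in R 4.3.3, allowing for a trend of variance with level, and p-values were adjusted (Benjamini-Hochberg) over the 13088 genes that reached 10 in 3 libraries or more. A gene was called at an adjusted p under 0.05, and 3582 genes were set aside. Reads were recovered from the rounding steps of the low values, by likelihood, and are estimates. The fit was tested on simulated data in which few genes changed. In the data themselves 81.9% of tested genes were called (limma adjusted p under 0.05), a setting that the simulation does not cover.

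The members and lists were chosen with earlier results of these data known. Named genes were the 9 members, CDKN2A, CDKN1A, the 3 largest called changes of each list at a mean of 100 units or more, and the closest gene outside the lists to each member. Of the genes so named, 2 are not reported here. Other genes were chosen after their values were seen. Gene positions and exon lengths were taken from GENCODE release 29 (GRCh38). Alternatives were 4 other scalings, 2 other filters, 2 other pseudocounts, limma-voom on recovered reads, a replicate block, and leaving out each library.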

Additional observations from a re-analysis of the deposited data

How the results depend on the processing

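All 9 members kept their direction and their side of the threshold under all 16 alternatives (144 of 144 comparisons). Leaving out each library in turn gave log2 changes of 0.225 to 0.329 for MDM2, 0.544 to 0.75 for MDM4, -1.617 to -1.49 for TP53I3 and -0.502 to -0.367 for FDXR. The log2 ratio of the summed level of the 7 targets was -1.078, and it moved by more than the spread between libraries to -1.165 with upper-quartile scaling and -0.887 with library size alone, by construction of the scaling. With library size alone 6461 genes were higher and 4353 lower, against 5451 and 5266. With the replicate number as a replicate block the members again gave 2 higher and 7 lower, and MDM2 a log2 change of 0.283. Same-numbered libraries did not deviate together (Pearson's r across genes of -0.172, -0.013 and -0.033). Deviations were also related to exon length, in opposite directions in the replicates numbered 1. These values therefore cannot decide whether libraries were paired, and the labels name no pairing. CDKN1A and the genes reported as the largest changes of each list also kept their direction and call under all 16 alternatives. The lowest number of recovered reads for a member in a group was 1383, for FAS over the 3 salinomycin libraries.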

Other observations

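Untreated replicate 1 held the lowest or the highest untreated value for all 9 genes, where 66.5% of all tested genes had that library at an extreme. It was the lowest for the 6 genes with exon lengths of 4.017 to 13.284 kilobases (TIGAR, FAS, TP53INP1, ZMAT3, MDM4 and MDM2). It was the highest for the 3 genes of 2.312 to 3.599 kilobases (TP53I3, BTG2 and FDXR). Salinomycin replicate 1 held the highest salinomycin value for 5 genes, all of 4.017 kilobases or more, and the lowest for TP53I3, FDXR and FAS, the last of which has 4.253 kilobases. BTG2, of 2.757 kilobases, and FAS were both highest in salinomycin replicate 2. Salinomycin replicate 1 was at an extreme for 8 of the 9 genes, against 73.7% of all tested genes.

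Exon length and library deviation were also related across the table. Over 12846 tested genes with an exon length, the deviation of a library from its group mean had a Spearman's rho with length of -0.366, 0.077 and 0.278 in untreated replicates 1, 2 and 3 and of 0.312, 0.047 and -0.357 in salinomycin replicates 1, 2 and 3. Of the 6 longer members, MDM2, MDM4, TP53INP1 and FAS were highest in untreated replicate 2, and TIGAR and ZMAT3 in untreated replicate 3. These are descriptions across genes of the same libraries. For the 3212 longest genes (7.64 kilobases or more) the median deviation was -0.049 in untreated replicate 1 and 0.037 in salinomycin replicate 1 (log2 scale). The members of that length lay further from 0 than these medians in both libraries. The spread of the other long genes around the medians was not examined. The values were -0.117 and 0.113 for MDM2, -0.194 and 0.201 for MDM4, and -0.111 and 0.173 for ZMAT3. The log2 change between groups had a rho of -0.072 with length. Its median was -0.093 in the 3212 longest genes and 0.126 in the 3212 shortest. The longest members, MDM2 and MDM4, rose, and ZMAT3, the next longest, fell. Without untreated replicate 1 the log2 change of MDM4 was 0.548 and without salinomycin replicate 1 it was 0.544, against 0.645. The part of exon length in the members' changes was not tested further.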
